A study of Homo sapiens with 6 samples.

Results

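The homeodomain-interacting protein kinases (HIPKs) are 4 human genes, HIPK1 to HIPK4, and all 4 were in the authors' deposited table of 60669 genes. The family was taken by gene symbol, and it was chosen by the measured value of HIPK1, which was picked because it was much higher after ADAMTS12 depletion, so the HIPK1 difference is given as a description with no test. HIPK2, HIPK3 and HIPK4 were taken as the remaining family members, with results of the same contrast already known. Genes entered the test when their normalized counts averaged at least 10 across the libraries, which 15637 genes did, 3 of the 4 members among them, and HIPK4 did not.

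HIPKs are serine/threonine kinases that act mostly in the nucleus, where they bind homeodomain proteins, co-repressors and other transcription regulators and phosphorylate them. HIPK2 is best known for its part in the response to severe DNA damage, and its protein is kept low in unstressed cells by ubiquitin ligases such as SIAH1, SIAH2, WSB1 and MDM2. HIPK1 and HIPK3 share much of the HIPK2 kinase domain, an exon of HIPK3 also gives rise to a well-known circular RNA, and HIPK4 is a shorter, more distant member known mainly from testis. In liver fibrosis, HIPK2 has been studied as a partner of the TGF-beta and Wnt pathways.

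The measurements came from LX-2, an established human line of activated hepatic stellate cells, labelled wild type and grown in medium with fetal calf serum. One group of 3 libraries came from cells given a control small interfering RNA (siCTL), and the other group of 3 from cells given an siRNA against ADAMTS12 (siADAMTS12), a secreted metalloprotease. Both were delivered with Lipofectamine RNAiMAX and left for 48 h, and the depletion rests on 1 siRNA sequence set against a commercial negative control. The comparison asks how transcript levels differ when ADAMTS12 is depleted in these cells. The labels do not say whether the replicates came from separate cultures, and the p-values therefore reflect library-to-library spread that may be technical.

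ADAMTS12, the target, stood at 13709, 12235 and 13423 normalized counts in siCTL libraries 1 to 3 and at 4083, 3449 and 3687 in siADAMTS12 libraries 1 to 3, a log2 fold change of -1.81 ± 0.07 (SE; limma adjusted p = 4.81e-08). Summed normalized counts ran from 33576945 to 34072515 with siCTL and from 30678468 to 31415206 with siADAMTS12, and the number of reads per library is not given by these scaled values. Of the stellate cell markers, COL1A1, a type I collagen chain, lay between 92869 and 121851 in all 6 libraries. Of 8 such markers 0 rose and 4 fell, where 15.5% of all genes were called lower (limma adjusted p under 0.05): PDGFRB (log2 fold change -0.80), THY1 (-0.63), VIM (-0.55) and TIMP1 (-0.43). The summed level of the 8 was 355545 to 386369 with siCTL and 275603 to 284508 with siADAMTS12. Hepatocyte markers summed to at most 2 in any library, with ALB at 0 to 1 and APOB at 0 throughout. Endothelial markers summed to 15 to 39, leukocyte markers to 101 to 126, and bile duct markers to 1733 to 2232, the last carried by SOX9 and KRT7 with EPCAM at 0 to 7. None of the 4 members of these other lists that could be tested passed, and the part of the stellate marker fall in the HIPK values was not tested. In bulk RNA, fewer cells of a kind and less RNA per cell cannot be told apart.

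The siRNA and the places where its guide could pair with HIPK transcripts are shown first, because an siRNA is known to lower also transcripts that match only its seed, positions 2 to 8 of the guide. The sense strand is taken from the labels, without its overhang, and the guide is its reverse complement, both 5′ to 3′. Capitals mark the seed in the guide and its complement in the sense strand. The last line is the only match to the whole seed found in the 3′ untranslated region (3′ UTR) of a HIPK gene, at chr7:139564550-139564556 on the minus strand of GRCh38 in HIPK2 (GENCODE 29).
siADAMTS12 sense strand: gccaaaguuugGAGGGAAa
siADAMTS12 guide strand: uUUCCCUCcaaacuuuggc
HIPK2 3′ UTR site: caatccagatgGAGGGAAaaggtgtgagt

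The 7-base seed match GAGGGAA occurred once in the 11357-base HIPK2 3′ UTR, followed by an A, and the 6-base match AGGGAA to guide positions 2 to 7 occurred 8 times there, that site included. Neither occurred in the 3′ UTRs of HIPK1 (4292 bases), HIPK3 (3455 bases) or HIPK4 (316 bases). Over 12605 tested protein-coding genes with 1 principal transcript each, the 7-base match was in 15.6% of 3′ UTRs and the 6-base match in 41.3%. Among genes called higher these shares were 10.9% and 38.5%, and among genes called lower 30.7% and 61.4%. Median 3′ UTR lengths were 1138 bases over all, 1297.5 among genes called higher and 1666 among genes called lower. The shares were not adjusted for these lengths. The HIPK 3′ UTRs are long: those of HIPK2, HIPK1 and HIPK3 exceeded 99.3%, 90.2% and 85.3% of all those searched. With every annotated 3′ UTR of the members searched, HIPK2 was again the only one with the 7-base match, and it lay only in the transcript with the long 3′ UTR.

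**Figure D1:**
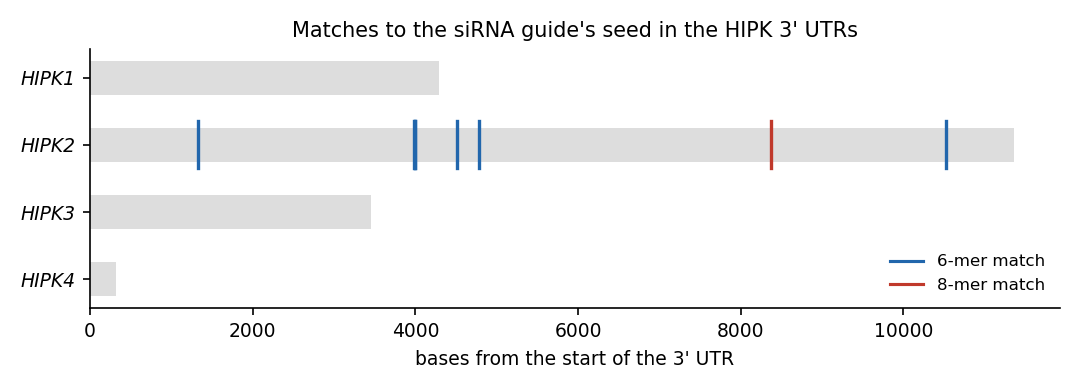
Position of matches to the siRNA guide's seed along the 3′ UTR of each HIPK gene, in bases from the start of the 3′ UTR; grey bars are drawn to scale, blue lines are 6-base matches (3 of them too close to part) and the red line is the site with the full seed. Only HIPK2 holds any, 8 in 11357 bases, while the bars of HIPK1 and HIPK3 are empty.

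All 3 abundant HIPK genes had higher transcript levels in every siADAMTS12 library than in any siCTL library. HIPK1 was 2.90-fold higher, HIPK3 rose 2.08-fold and HIPK2 rose 1.34-fold, while HIPK4 was at trace level in both groups. Both members that could be tested apart from the one picked for its rise, HIPK2 and HIPK3, were called higher by limma. Of the 15637 genes tested, 11.5% were called higher and 15.5% lower at an adjusted p under 0.05, 0.652% were called higher by a log2 value of at least 1, and 19.2% had all siADAMTS12 libraries above all siCTL libraries. Of all calls 42.6% were higher, and 71.4% were when every library was rescaled to the same total, a change that moved the median log2 fold change of all genes from 0.005 to 0.129 and left HIPK2 and HIPK3 called higher.

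HIPK1 (ENSG00000163349, chromosome 1, 113929192 to 113977869, plus strand, GRCh38) had 1506, 1306 and 1468 normalized counts in siCTL libraries 1 to 3, and 4085, 4261 and 4059 in siADAMTS12 libraries 1 to 3. The siADAMTS12 libraries lay close together and far above the siCTL ones, with the lowest siCTL value in replicate 2. The mean went from 1427 ± 106 to 4135 ± 110 (SD, n = 3), a log2 fold change of 1.54 ± 0.07 (SE). Over leaving out each library in turn and the changes of scaling, pseudocount and filter tried, this value stayed between 1.47 and 1.66.

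HIPK3 (ENSG00000110422, chromosome 11, 33256672 to 33357023, plus strand) had 1236, 1082 and 1255 normalized counts in siCTL libraries 1 to 3, and 2504, 2511 and 2429 in siADAMTS12 libraries 1 to 3. As for HIPK1, replicate 2 was the lowest of the siCTL libraries, and the groups did not overlap. The mean rose from 1191 ± 94.9 to 2481 ± 45.5 (SD, n = 3), a log2 fold change of 1.06 ± 0.07 (SE; 95% interval 0.91 to 1.22) with a limma adjusted p of 1.21e-06. This gene-level value cannot separate the messenger RNA from other RNAs of the locus, such as the circular one.

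HIPK2 (ENSG00000064393, chromosome 7, 139561570 to 139777778, minus strand) had 4544, 4146 and 5230 normalized counts in siCTL libraries 1 to 3, and 5936, 6179 and 6489 in siADAMTS12 libraries 1 to 3. The siCTL libraries were more spread than for HIPK1 and HIPK3, with an SD of 11.8% of the mean against 7.44% and 7.97%. Replicate 3 was the highest and replicate 2 the lowest. The mean rose from 4640 ± 548 to 6201 ± 277 (SD, n = 3), a log2 fold change of 0.42 ± 0.08 (SE; 95% interval 0.24 to 0.60) with a limma adjusted p of 0.00274. It stayed past the threshold in all 13 alternatives, with adjusted p from 0.000466 to 0.0151 and log2 fold changes from 0.35 to 0.55.

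HIPK4 (ENSG00000160396, chromosome 19, 40379271 to 40390187, minus strand) had 0, 2 and 5 normalized counts in siCTL libraries 1 to 3 and 2, 1 and 7 in siADAMTS12 libraries 1 to 3. The groups overlapped, and no difference was detectable at this level. With each library left out in turn its log2(value + 1) difference ran from -0.22 to 1.07, so no direction is given.

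**Figure D2:**
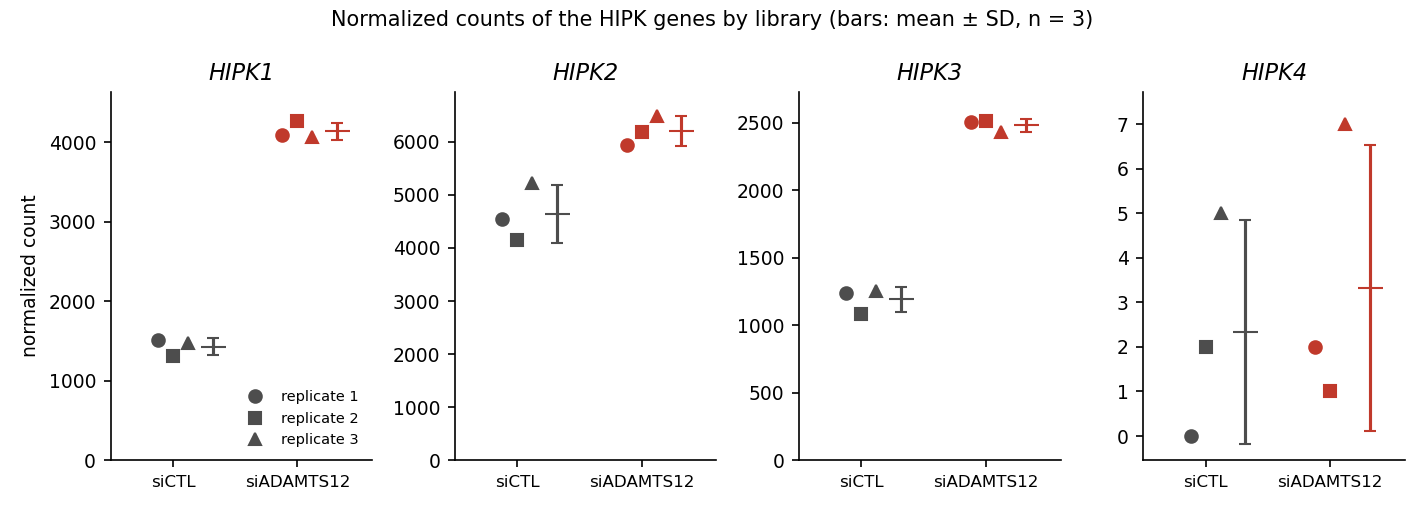
Normalized counts (y axis, a separate scale for each gene) of HIPK1 to HIPK4 in the 3 siCTL libraries (grey) and the 3 siADAMTS12 libraries (red); symbols mark the replicate number and bars show mean ± SD (n = 3). The groups are apart for HIPK1, HIPK2 and HIPK3 and overlap for HIPK4, which reaches 7 at most.

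Levels were compared between genes only per kilobase of annotated exons (GENCODE 29, all exons of a gene merged). With siCTL, HIPK2 was the most abundant at 301 ± 35.6 normalized counts per kb (SD, n = 3), and HIPK1 (154 ± 11.4) and HIPK3 (150 ± 11.9) were close. HIPK1 was the higher of these in each siCTL library, at 162 against 155, 141 against 136 and 158.2 against 157.7, and no test of that difference was made. With siADAMTS12, HIPK1 was at 446 ± 11.8, HIPK2 at 403 ± 18 and HIPK3 at 312 ± 5.71 per kb. HIPK1 thus stood above HIPK2 in each siADAMTS12 library and below it in each siCTL library, a difference that includes the HIPK1 value the family was chosen by. With the length of 1 principal transcript in place of merged exons, HIPK1 and HIPK2 were at 175 and 308 per kb with siCTL and at 507 and 412 with siADAMTS12, in the same order. Both lengths include the 11357-base 3′ UTR of HIPK2, whereas its transcripts HIPK2-203 and HIPK2-201 have 3′ UTRs of 298 and 201 bases. Which transcripts the reads came from is not known, so the order of HIPK1 and HIPK2 with siADAMTS12 depends on the length assumed.

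The summed level of the family per kb of exons was 613, 547 and 657 in siCTL libraries 1 to 3 and 1141, 1176 and 1167 in siADAMTS12 libraries 1 to 3. Within that sum, the share of HIPK2 went from 49.7 ± 1.79% to 34.7 ± 1.26% and that of HIPK1 from 25.4 ± 1.24% to 38.4 ± 0.795%, while HIPK3 made up 24.7 ± 0.693% and 26.9 ± 0.708% (SD, n = 3). HIPK4 made up at most 0.310% in any library. The sum and the shares include the HIPK1 value the family was chosen by, and they depend on the exon lengths used. The share of HIPK2 fell although its own level went from 301 to 403 per kb.

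**Figure D3:**
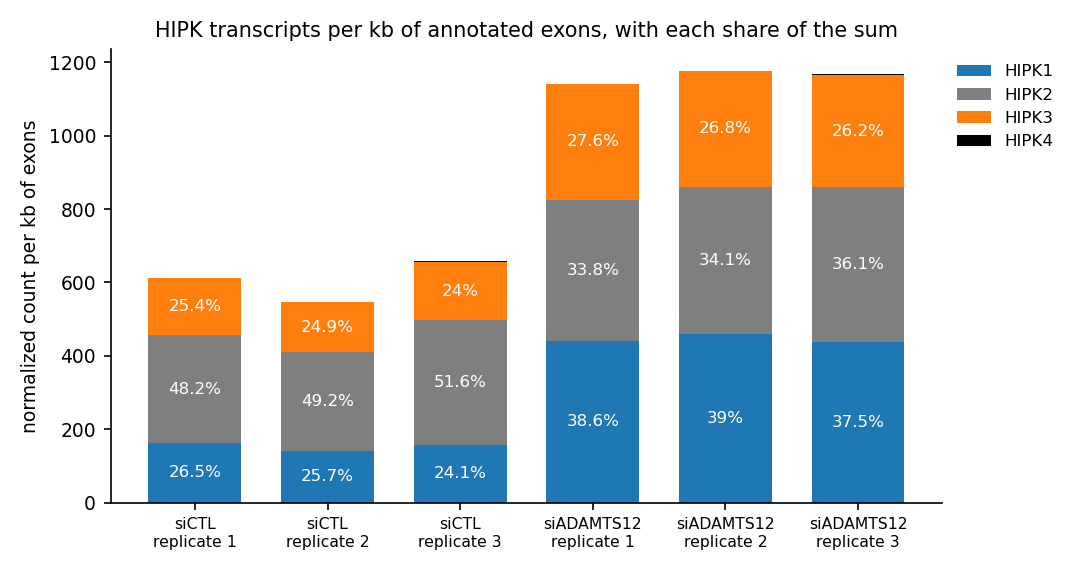
Normalized counts per kb of annotated exons for HIPK1 (blue), HIPK2 (grey), HIPK3 (orange) and HIPK4 (black), stacked for each of the 6 libraries, with each gene's percent of the library's sum. The siADAMTS12 bars reach 1141 to 1176 against 547 to 657 for siCTL. With these exon lengths the largest segment changes from HIPK2 to HIPK1, the gene picked for its rise.

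Ratios within a library do not depend on how libraries were scaled. The ratio of HIPK3 to HIPK2 normalized counts was 0.272, 0.261 and 0.240 in siCTL libraries 1 to 3 and 0.422, 0.406 and 0.374 in siADAMTS12 libraries 1 to 3. The groups did not overlap and the ratio was higher with siADAMTS12 by a log2 value of 0.64, but an exact 2-sided permutation test of 3 against 3 cannot go below the p = 0.1 it gave. The ratio of HIPK1 to HIPK2 was 0.331, 0.315 and 0.281 with siCTL and 0.688, 0.690 and 0.626 with siADAMTS12. The ratio of HIPK1 to HIPK3 was 1.22, 1.21 and 1.17 with siCTL and 1.63, 1.70 and 1.67 with siADAMTS12.

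Across the 6 libraries, HIPK1 and HIPK3 had nearly the same pattern. Each was compared with the 12265 other genes that had a mean of at least 50 and a symbol that is not a clone name. TFB1M, SFXN1, TCTN2 and HIPK3 were among the 5 whose log2 values followed HIPK1 most closely by Pearson correlation (r = 0.9983 to 0.9994). TFB1M is a mitochondrial ribosomal RNA methyltransferase, SFXN1 a mitochondrial serine transporter and TCTN2 a protein of the ciliary transition zone. The 3 closest to HIPK3 included the actin-binding RAI14 and HIPK1. The 3 closest to HIPK2 were the centrosomal CEP95, the zinc finger gene ZNF649 and the vesicle fusion gene VAMP2, with r = 0.9945 to 0.9987. SFXN1 rose by a log2 value of 1.55, whereas CEP95 (0.14) and ZNF649 (0.24) did not pass (limma adjusted p = 0.141 and 0.0941). HIPK2 apart, none of the genes named here holds the 6-base seed match in its 3′ UTR. The correlations are a description over 6 libraries that share the same group difference, and 602 genes had r above 0.95 with HIPK1.

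The RefSeq starts nearest to those of the principal HIPK1 and HIPK3 transcripts lie in GC-rich sequence. They are shown here because these 2 members stood far higher together, and the part of promoter sequence in their levels was not tested. The RefSeq promoters on GRCh38.p14, from 250 bases before to 50 after the start nearest to that of the principal transcript, lie at chr1:113929594-113929893 for HIPK1 and chr11:33257131-33257430 for HIPK3, both on the plus strand. Capitals mark GC boxes (GGGCGG on either strand).
HIPK1 promoter: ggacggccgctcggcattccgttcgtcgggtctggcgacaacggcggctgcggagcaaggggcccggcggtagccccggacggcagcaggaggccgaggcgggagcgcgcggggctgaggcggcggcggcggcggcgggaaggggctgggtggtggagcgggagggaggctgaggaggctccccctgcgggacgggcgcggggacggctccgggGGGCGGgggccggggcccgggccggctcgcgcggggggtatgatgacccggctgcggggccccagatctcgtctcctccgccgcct
HIPK3 promoter: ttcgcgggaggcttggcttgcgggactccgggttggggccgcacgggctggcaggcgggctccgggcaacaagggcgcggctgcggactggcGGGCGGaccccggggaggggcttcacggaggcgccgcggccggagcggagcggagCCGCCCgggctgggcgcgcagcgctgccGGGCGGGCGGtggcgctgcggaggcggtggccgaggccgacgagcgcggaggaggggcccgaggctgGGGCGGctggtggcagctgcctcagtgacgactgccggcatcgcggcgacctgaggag

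The GC content was 80.3% in the HIPK1 promoter and 79.7% in the HIPK3 promoter, against a median of 58.7% over 35116 RefSeq promoters of the same length. This background was not limited to genes expressed in these cells, and a gene can have several promoters in it. GC boxes numbered 1 in HIPK1 and 5 in HIPK3, counting overlapping matches, and 44.95% of all promoters held at least 1. On either strand neither window held the TATA box TATAAA (in 11.5% of all promoters), the cyclic AMP response element TGACGTCA (1.85%), the E-box CACGTG (7.26%), the CCAAT box (34.6%) or the AP-1 site TGANTCA (7.71%). Alternative RefSeq starts exist for both genes, and gene-level values do not say which start was used. The windows at those other starts had 52.7% and 28.3% GC for HIPK1 and 42.0% and 69.7% for HIPK3. The TATA box occurred in the 28.3% and 42.0% windows, and the 28.3% window also held an AP-1 site. The HIPK4 promoter had 59.3% GC and 1 GC box. HIPK2 is not in the promoter table.

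None of the genes next to or overlapping the HIPK loci that could be tested passed. DCLRE1B, the DNA repair nuclease gene on one side of HIPK1, had log2 fold change -0.11 (limma adjusted p = 0.244), and OLFML3, 1521 bases beyond the other end, had -0.36 (limma adjusted p = 0.105). HIPK1-AS1, the antisense RNA that overlaps HIPK1, had 0, 0 and 1 normalized counts with siCTL and 4, 1 and 0 with siADAMTS12. KIAA1549L, 19442 bases from HIPK3, was at -0.15 and PARP12, 245965 bases from HIPK2, at 0.17, and neither passed (limma adjusted p = 0.316 and 0.144). TBXAS1, which overlaps HIPK2 on the opposite strand, had 32 to 35 normalized counts with siCTL and 38 to 46 with siADAMTS12 (log2 fold change 0.34, limma adjusted p = 0.237), and PLD3, which overlaps HIPK4, had 4392 to 4871 in all 6 libraries. The kit keeps strand, but how the authors' counting used it is not stated, so reads of overlapping genes on opposite strands cannot be told apart here.

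The closest kinase relatives of the HIPKs are the DYRKs, which phosphorylate their own activation loop as they are made, followed by the CLKs and PRPF4B, which act on splicing factors. Of 10 relatives tested, 4 rose, 1 fell and 5 did not pass, where 11.5% of all genes were called higher and 15.5% lower. All 4 that rose were DYRKs (of 5 tested, median log2 fold change 0.36), and none of the 4 CLKs passed (median 0.03), though CLK1 did with equal totals (0.21, adjusted p = 0.0379). Whether the families differ was not tested.

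DYRK1B, a kinase linked to quiescence and Hedgehog signalling, had 103, 146 and 142 normalized counts in siCTL libraries 1 to 3 and 241, 249 and 244 in siADAMTS12 libraries 1 to 3. The groups did not overlap, and the log2 fold change was 0.92 ± 0.14 (SE; limma adjusted p = 0.000677). DYRK2, a kinase of the DNA damage response, rose from 1198 ± 53.6 to 1710 ± 74.1 (SD, n = 3; log2 fold change 0.51, limma adjusted p = 0.000183). DYRK3, which controls the dissolution of membraneless condensates, and DYRK1A, a dosage-sensitive neurodevelopmental kinase, rose by log2 values of 0.36 and 0.29. These 4 calls held in all 13 alternatives. DYRK1A and DYRK1B each hold the 7-base seed match in the 3′ UTR, as HIPK2 does, and its part in their levels was not tested. PRPF4B holds neither that match nor the 6-base one. The fall of PRPF4B (log2 fold change -0.26, limma adjusted p = 0.0168) did not pass without siCTL replicate 3 (0.0730), without siADAMTS12 replicate 3 (0.0629), after quantile normalization (0.0642) or with library totals made equal (0.131).

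**Figure D4:**
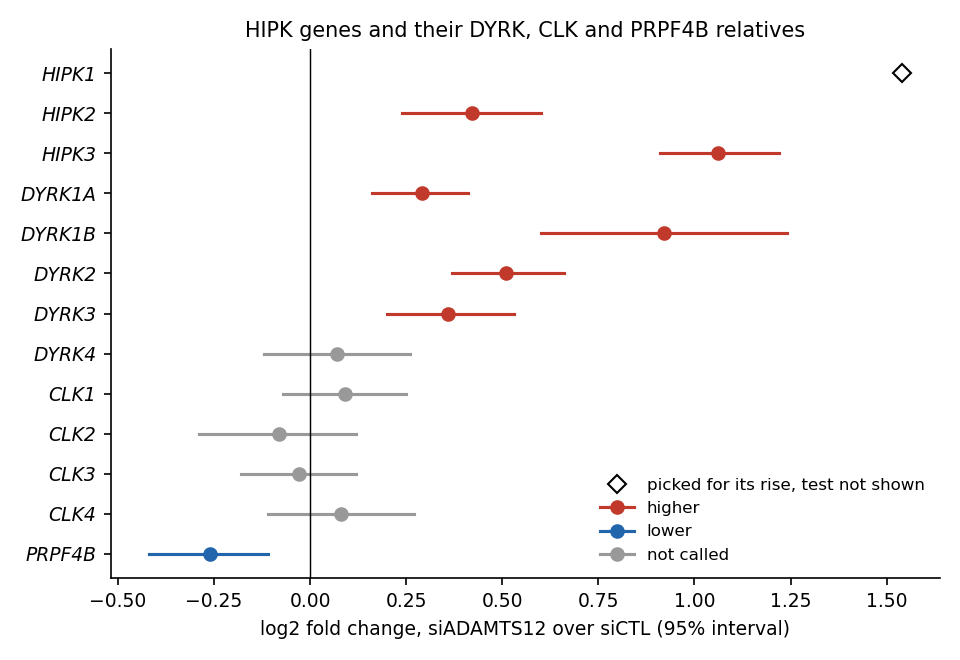
Log2 fold change (siADAMTS12 over siCTL) of the 3 abundant HIPK genes and 10 relatives, with the 95% interval from limma; red marks genes called higher, blue lower and grey not called, and the open diamond is HIPK1, which was picked for its rise and is shown without its test. HIPK2 and HIPK3 lie at 0.42 and 1.06, the intervals of 4 of 5 DYRK genes lie wholly to the right of 0, and those of all 4 CLK genes cross 0 under the authors' scaling.

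The next list holds genes whose products set the amount, cleavage or location of HIPK protein. Of 19 tested, 4 rose, 3 fell and 12 did not pass, with a median log2 fold change of 0.08 against 0.00 over all genes. Over all genes 11.5% were called higher and 15.5% lower, and the share of this list that fell is near that background. The ubiquitin ligase WSB1 rose from 3299 ± 179 to 4039 ± 59.4 (log2 fold change 0.29) and CASP6, a caspase that cleaves HIPK2, from 611 ± 26.3 to 801 ± 46.3 (0.39; SD, n = 3). DAZAP2, a regulator of HIPK2 turnover, fell from 7035 ± 211 to 4994 ± 327 (-0.50; limma adjusted p = 0.00017) and holds the 7-base seed match. The checkpoint kinase CHEK2 fell by 0.45 and the nuclear body protein SP100 by 0.24 on the log2 scale, and neither holds even the 6-base match. SP100 did not pass after quantile normalization (0.0725) or with equal totals (0.119). The part of seed matches in these falls was not tested.

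The other 2 rises in that list, the SUMO protease SENP1 (log2 fold change 0.30) and the phosphatase PPM1D (0.35), fall outside the naming rule and are named after their values were seen. PPM1D did not pass without siCTL replicate 1 (adjusted p = 0.0622) or without siADAMTS12 replicate 2 (0.0535). SIAH1, SIAH2 and MDM2, the ligases best known for HIPK2, did not pass, with log2 fold changes of 0.16, -0.10 and 0.09. With equal totals, 9 members of this list were called higher, SIAH1 and MDM2 among them.

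Among transcription regulators and some signalling proteins that bind HIPKs or are phosphorylated by them, 4 of 23 rose, 3 fell and 16 did not pass. Their median log2 fold change was 0.03. Set against the 11.5% of all genes called higher and 15.5% called lower, the share that fell is again near the background. The Wnt-pathway repressor TCF7L1 rose from 850 ± 120.5 to 1591 ± 221 (0.90) and the transcription factor MYB from 113 ± 22.3 to 214 ± 41.7 (0.92; SD, n = 3).

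CREB1, the cyclic AMP response factor, and MAP3K5, a stress kinase, fell by 0.44 and 0.46 on the log2 scale (limma adjusted p = 0.0023 and 0.00284). CREB1 holds the 7-base seed match and MAP3K5 does not hold even the 6-base one. Outside the naming rule, the acetyltransferase gene CREBBP was just past the threshold with groups that overlapped (log2 fold change 0.28, limma adjusted p = 0.048), and MECOM fell by 0.55. CREBBP did not pass with no filter (0.091) or without any 1 library but siADAMTS12 replicate 1, with adjusted p from 0.0603 to 0.152. With the replicate number as a block, 6 members of this list were called lower in place of 3. The counts called higher were 8 after quantile normalization and 11 with equal totals.

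**Figure D5:**
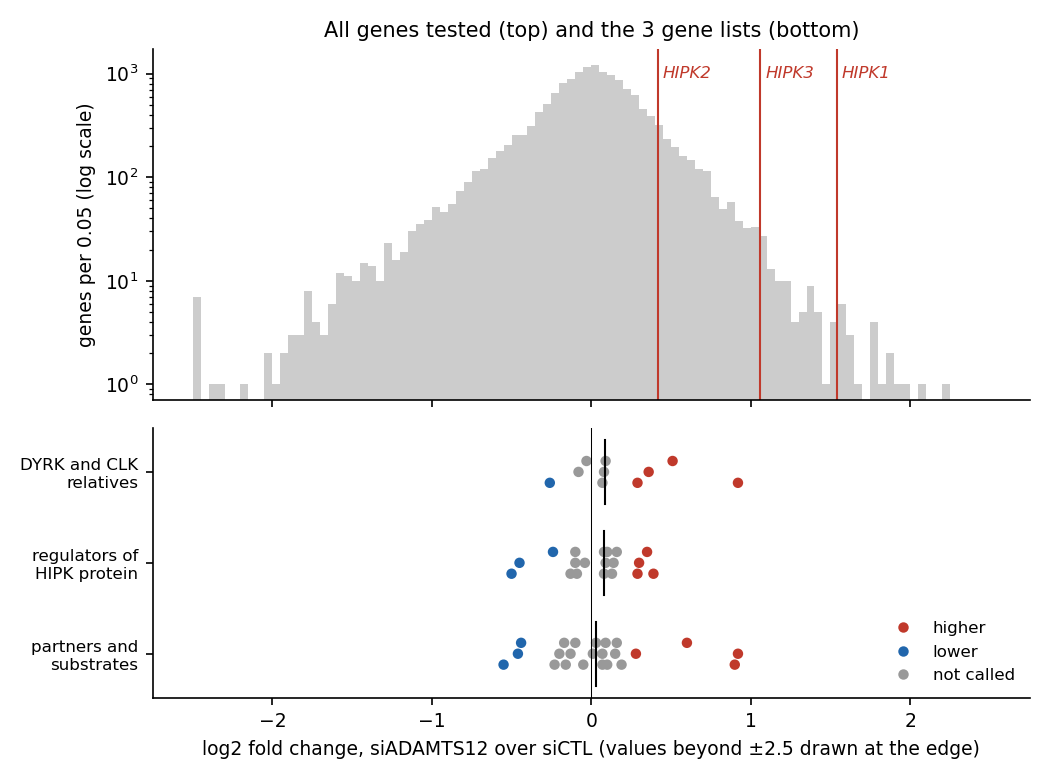
Top, distribution of log2 fold change (siADAMTS12 over siCTL) over the 15637 genes tested, on a log count axis, with red lines at HIPK2 (0.42), HIPK3 (1.06) and HIPK1 (1.54). Bottom, each tested member of the 3 gene lists as a point (red called higher, blue lower, grey not called) with the list's median as a black line; the medians lie between 0.03 and 0.09.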

How the data were processed

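Stranded mRNA libraries of total RNA, 3 siCTL and 3 siADAMTS12, were sequenced. Per the submitters' processing notes, STAR, HTSeq and DESeq2 were used with build GRCh38; their versions, the gene models and the counting strand were not given in the sources used here. What the authors deposited is treated as a score: normalized counts, per the labels, rounded to whole numbers, so no count model was fitted. Values were analysed as log2(value + 1), which understates folds of low genes. limma 3.58.1 (R 4.3.3; lmFit, eBayes with trend) was fitted to all 15637 genes with a mean of at least 10, with group as the only term and 2-sided p-values adjusted by Benjamini-Hochberg (threshold 0.05). The same fit was also run on counts simulated at the real means with a fixed spread and known changes in some genes. It called 48.4% of log2 shifts of 0.5 and 88.1% of shifts of 1, and 4.39% of its calls were unchanged genes. A gene that did not pass may therefore still differ.

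The labels number the replicates without naming a shared batch; deviations from the group mean correlated over genes at 0.37, 0.13 and 0.13 between libraries numbered 1, 2 and 3, so a blocked fit on that number was added. The other alternatives were pseudocounts of 0.25 and 8, a minimum mean of 50 or none, quantile normalization, equal library totals and leaving out each library. Exon lengths, neighbours and 3′ UTRs came from GENCODE 29 on GRCh38, with 1 principal transcript per gene. Python 3.11.15, numpy 2.4.6, pandas 2.3.3, scipy 1.17.1 and matplotlib 3.10.9 were used. The members and gene lists were chosen with earlier results of these data known. Named were the members, ADAMTS12, the closest genes by correlation, adjoining genes, and up to 5 members of each list with the smallest adjusted p among those past the threshold, or the one with the smallest p where none passed. Other names were chosen after their values were seen. Some results that these choices cover are not reported here.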

Additional observations from a re-analysis of the deposited data

How the results depend on the processing

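HIPK2 and HIPK3 kept their direction and side of the threshold in all 13 alternatives, and adjusted p for HIPK3 ran from 1.02e-06 to 1.49e-05. Leaving out each library in turn gave log2 fold changes of 1.47 to 1.58 for HIPK1, 0.35 to 0.51 for HIPK2, 0.99 to 1.10 for HIPK3 and -0.22 to 1.07 for HIPK4, with 1230 to 1623 genes called higher and 1872 to 2364 lower. Rescaling every library to the same total moved the median log2 fold change of all genes from 0.005 to 0.129. It gave 3868 genes called higher and 1546 lower (71.4% of calls higher against 42.6%), with HIPK1 at 1.66, HIPK2 at 0.55 and HIPK3 at 1.19. With the replicate block, 2423 genes were called higher and 3059 lower, the adjusted p of HIPK2 was 0.000514, and no call of HIPK2, HIPK3 or those list genes named by the rule changed. Of 182 values under alternatives for the 14 genes named from the lists by the rule, 176 kept their call, 6 no longer passed and 0 reversed. The HIPK4 difference was taken outside the fit, and it was not computed for quantile normalization or a minimum mean of 50. Scaled values carry no read depth, which limits what can be said of HIPK4.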
